A study of Mus musculus with 2 samples.

Results

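Proteoglycans are core proteins that carry long sulfated sugar chains, the glycosaminoglycans. The genes described here encode 13 core proteins of the cell surface and matrix (Vcan, Ncan, Bcan, Acan, the glypicans Gpc1, Gpc2, Gpc3, Gpc4 and Gpc6, and the syndecans Sdc1 to Sdc4), other core proteins, partners of hyaluronan, and the enzymes that build, sulfate and trim the chains. A list of 40 mouse gene symbols was matched to the probe sets that the platform annotation gives a single gene symbol. Of the 40, 38 had at least 1 such probe set, 90 probe sets in all among 34958 probe sets of 18194 named genes. Ndst1 and Xylt1 were not analysed here.

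Expression was measured in 2 single cells of the CD1 mouse retina, 1 taken on the day of birth (P0) and 1 at embryonic day 12.5 (E12.5). Each cell's cDNA was primed at the poly(A) tail, amplified by 35 cycles of PCR and hybridised to its own Affymetrix mouse array. The submitters placed both cells in the developing ciliary body and iris region, at the rim of the optic cup, from the genes the cells expressed, once the arrays had been read. There is 1 cell per age, so differences have no replicate check and no test, values given at P0 and at E12.5 are those of 1 cell each, and the number of arrays limits the precision.

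Glycosaminoglycan synthesis runs as an assembly line. A short linker is built on serines of the core protein, polymerases extend it into heparan sulfate or chondroitin sulfate from nucleotide sugars, and sulfotransferases then decorate the chain, whose sulfation decides which growth factors and guidance cues it binds. Hyaluronan, a chain without sulfate or core protein, is made at the plasma membrane and held in the matrix by link proteins and by the proteoglycans versican, neurocan, brevican and aggrecan. The ciliary epithelium contributes to the vitreous body, which is rich in hyaluronan.

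A gene counted as detected when its MAS5 signal, an intensity in arbitrary units, exceeded the array's background limit of 349 at P0 and 258 at E12.5. The limit is the 99th percentile of 176 probe sets of gene families that the eye is not known to use, such as olfactory receptors. A gene below it was not detected at this sensitivity and cannot be called absent. A gene was called higher in a cell when it was detected there and the ratio was at least 4-fold, both signals being set no lower than their limits beforehand, and a fold written as "at least" is a lower bound because the dimmer cell was below its limit. Where a gene had several probe sets, the one with the highest mean log2 signal represents it. Log2 ratios of P0 over E12.5 from single probe sets of the same gene, detected in both cells, varied around the gene's mean with an SD of 0.83 (975 genes). This SD describes how far the probe sets of a gene disagreed on the same arrays. It leaves out error common to all probe sets of a gene, and variation between cells. Probe sets that were not detected in both cells are not part of it.

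Of the 38 genes, 16 (42.1%) were detected at P0 and 12 (31.6%) at E12.5, against 28.4% of all named genes at P0 and 30.3% at E12.5. A total of 7 (18.4%) were detected in both, against 18.7% of all named genes, and 17 in neither. These genes had 2.37 probe sets each, against 1.92 for all named genes. Counted over single probe sets, 21 of 90 (23.3%) passed at P0 and 16 (17.8%) at E12.5, against 22.4% at P0 and 24.1% at E12.5 of all probe sets with 1 gene symbol, so the excess of genes at P0 was small on that count. In all, 7 genes (18.4%) were called higher at P0, against 9.24% of all named genes, and 4 (10.5%) at E12.5, against 7.30%. With spike-in scaling the calls were 4 at P0 and 4 at E12.5, against 5.76% of all named genes at P0 and 11.6% at E12.5. The median log2 ratio of the 21 genes detected in at least 1 cell was 0.16, against 0.02 over the 7270 named genes so detected. That median is the value of B3gat3 alone, set by the limit at P0, and it was -0.27 or -0.28 under 5 of the 8 alternatives, so its sign is not fixed. Under the same 5 the median over all named genes lay between -0.05 and -0.17. In 1 of the 5, with no filter, both medians take in undetected genes too.

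**Figure D1:**
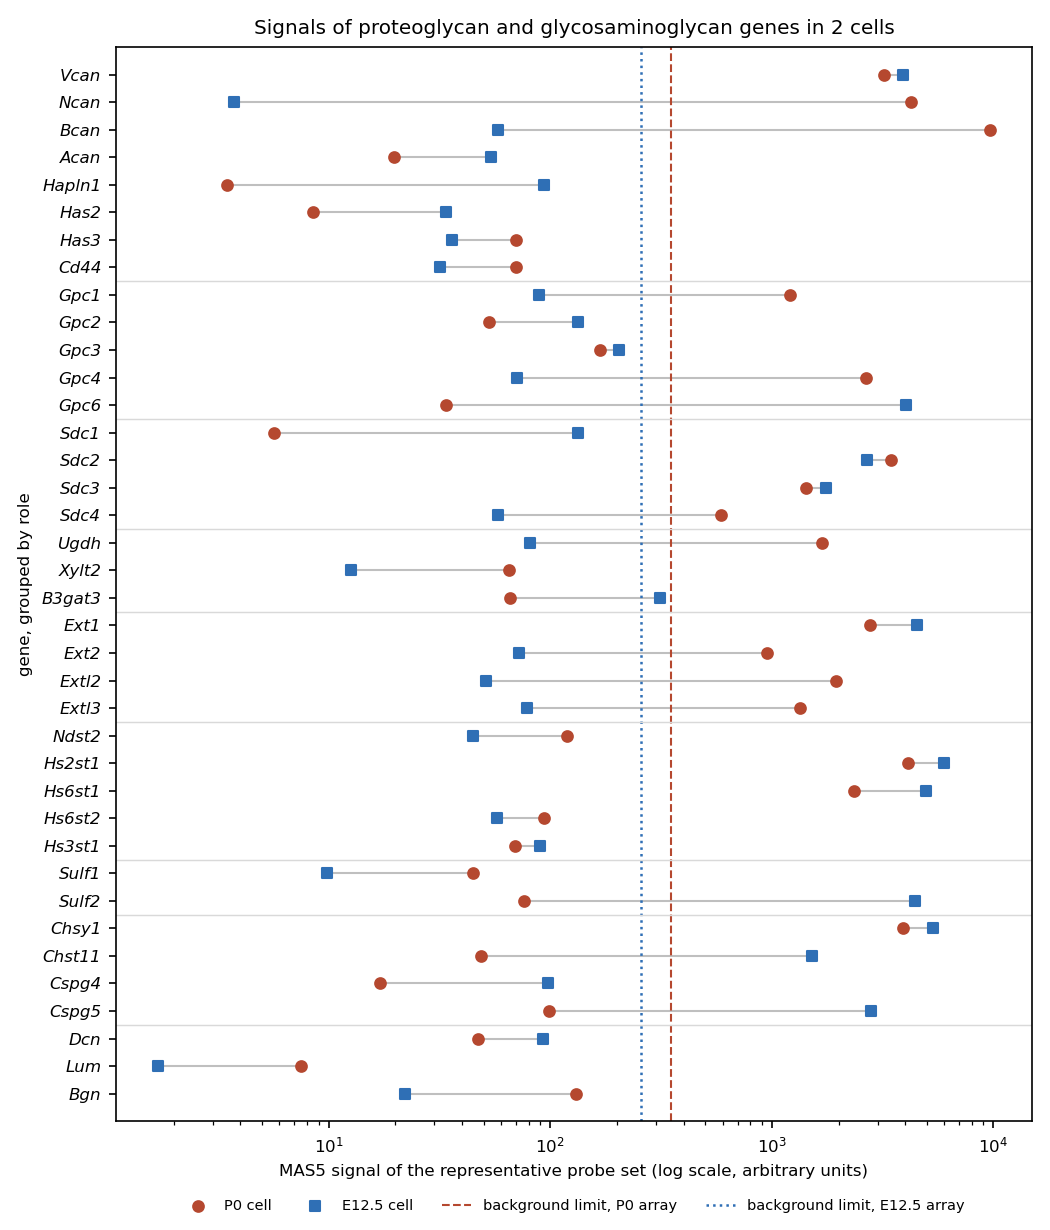
MAS5 signal (log axis, arbitrary units) of the representative probe set of each of 38 proteoglycan and glycosaminoglycan genes at P0 (circles) and the E12.5 cell (squares), with 1 array per cell, and the limits of 349 and 258 as vertical lines. The 7 genes to the right of both lines in both cells lie close together, whereas each of the 11 called genes has 1 signal below its line.

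Markers of the ciliary margin and of other cell types and states were counted in each cell, and some of the lists differed. Of the retinal progenitor markers, 8 of 10 were detected at P0 and 10 of 10 at E12.5, with a summed signal of 40220 at P0 and 92889 at E12.5. Of these, 5 were called higher at E12.5, among them Sfrp2 (38.4-fold), Pax6 (15.4-fold) and Ccnd1 (at least 32-fold), and Lhx2 was called higher at P0 (7.28-fold). Of the ciliary margin markers, 7 of 15 were detected at P0 and 9 of 15 at E12.5, with a summed signal of 32909 at P0 and 73691 at E12.5. Here 5 were called higher at E12.5, among them Wfdc1 (25.8-fold) and Cdon (10.7-fold), and Bmp7 was called higher at P0 (at least 7.38-fold). Msx1, Msx2, Bmp4, Mitf and Wnt2b were in neither. Astrocyte and glia markers numbered 6 of 7 at P0, with a summed signal of 38525, and 3 of 7 at E12.5, with 13224. Rlbp1 (at least 62.5-fold), S100b (at least 18.5-fold) and Gfap (at least 4.16-fold) were called higher at P0, and none of this list at E12.5. Of the periocular mesenchyme markers, 2 of 10 were detected at P0 (Col1a2 and Pdgfra, summed list signal 6268) and 0 of 10 at E12.5 (690). Of 8 vessel and pericyte markers, Rgs5 alone was detected, at P0 (summed list signal 1367 at P0 and 386 at E12.5). None of the 3 oligodendrocyte precursor, 6 ganglion cell, 4 photoreceptor, 7 lens or 7 microglial markers was detected in either. The part of progenitor, glial, mesenchymal and vessel transcripts in the results below was not tested.

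Of the proteoglycans that bind hyaluronan, Bcan and Ncan were called higher at P0, Vcan was detected in both cells and Acan in neither. Bcan encodes brevican, a hyaluronan-binding chondroitin sulfate proteoglycan of brain matrix. Its signal was 9681 at P0, against 58.1 at E12.5, at least 37.5-fold higher at P0. A second probe set gave 6460 at P0 and 26.1 at E12.5, at least 25-fold, so both probe sets separated the cells in the same way. Ncan encodes neurocan, the close relative of brevican, and had a signal of 4253 at P0 and 3.74 at E12.5, at least 16.5-fold higher at P0. That call rests on 1 probe set, since the other two of Ncan were below the limit in both cells (92.2 at P0 and 92.0 at E12.5, and 17.8 at P0 and 16.7 at E12.5), and it was lost when the probe sets of a gene were averaged.

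Versican, the relative of brevican and neurocan that is also made outside the nervous system, was shared by the cells. The representative probe set of Vcan had 3218 at P0 and 3900 at E12.5, a 1.21-fold difference within the spread between probe sets. A second Vcan probe set gave 134 at P0 and 2161 at E12.5, at least 6.19-fold higher at E12.5, and the other 6 were below the limits in both. Of the hyaluronan-binding group, the cartilage proteoglycan gene Acan, the link protein gene Hapln1, the hyaluronan synthase genes Has2 and Has3 and the hyaluronan receptor gene Cd44 were detected in neither cell by any of their probe sets. Their representative signals ran from 3.46 to 70.2 at P0 and from 31.8 to 93.7 at E12.5.

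Glypicans, heparan sulfate proteoglycans held on the membrane by a lipid anchor, had 2 of 5 members called higher at P0 and 1 at E12.5. Gpc4 had a signal of 2652 at P0 and 70.9 at E12.5, at least 10.3-fold higher at P0, and its second probe set (4841 at P0 and 7.17 at E12.5) at least 18.8-fold. Gpc1, with 1 probe set, had 1202 at P0 and 88.6 at E12.5, at least 4.66-fold higher at P0. That call was lost with scaling to the spike-ins added at hybridisation, where the log2 ratio was 1.35. Gpc6 ran the other way, with 33.8 at P0 and 4020 at E12.5, at least 11.5-fold higher at E12.5. One of its 4 further probe sets gave 1.4 at P0 and 1723 at E12.5, at least 4.94-fold, and the other three were below the limits, so that averaging left Gpc6 undetected in both cells. Gpc2 (52.9 at P0 and 133 at E12.5) and Gpc3 (168 at P0 and 204 at E12.5) stayed below the limits. A further probe set that the annotation assigns to Gpc2 together with Gal3st4 was not used. It had 3326 at P0 and 79.0 at E12.5, and that signal cannot be assigned to 1 of the genes. No glypican was detected in both cells, a count on 5 genes that does not set them apart. Over all named genes 18.7% were detected in both, 9.24% were called higher at P0 and 7.30% at E12.5.

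Syndecans, the transmembrane heparan sulfate proteoglycans, had none of 4 members called. Sdc2 had 3465 at P0 and 2696 at E12.5, 1.29-fold higher at P0 as deposited and lower there (log2 ratio -0.50) with spike-in scaling. Sdc3, the syndecan of neural tissue, had 1426 at P0 and 1760 at E12.5, a 1.23-fold difference. A second Sdc3 probe set gave 420 at P0 and 5.96 at E12.5. Sdc4 was detected at P0 only, at 587 against 58.0 at E12.5, at least 2.28-fold. Sdc1, the syndecan of epithelia, was below the limits in both cells (5.65 at P0 and 133 at E12.5).

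**Figure D2:**
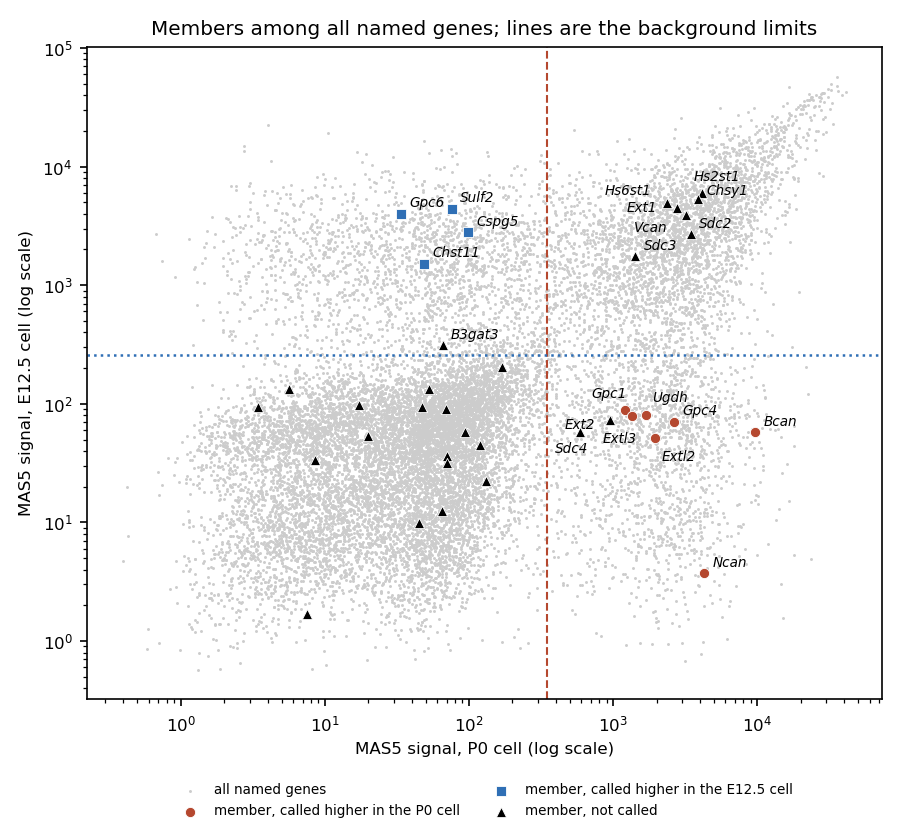
MAS5 signals of all 18194 named genes (grey) at P0 (x axis) and the E12.5 cell (y axis), both log axes, 1 array each, with the 38 genes in colour and the limits of 349 and 258 as lines. The 7 genes called higher at P0 lie at the lower right, the 4 called higher at E12.5 at the upper left, and 7 others lie in the upper right corner, detected in both.

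Genes of the Ext and Extl family were detected more widely at P0, where all 4 of Ext1, Ext2, Extl2 and Extl3 passed the limit, against 1 of 4 at E12.5. Over all named genes 28.4% passed at P0 and 30.3% at E12.5. Ext1 and Ext2 encode the 2 subunits of the chain polymerase, and of this pair both were detected at P0 and Ext1 alone at E12.5. Ext1 was in both cells, at 2774 at P0 and 4494 at E12.5, 1.62-fold lower at P0. Its second probe set gave 47.1 at P0 and 1481 at E12.5, at least 4.24-fold lower at P0. Ext2 was detected at P0 only (951 against 72.6 at E12.5), and its bound of 3.69-fold fell just short of a call. Extl3, whose product adds the first sugar that commits the linker to heparan sulfate, had 1343 at P0 and 78.6 at E12.5, at least 5.20-fold higher at P0. Extl2, which encodes a related enzyme that acts on the linker, had 1951 at P0 and 51.2 at E12.5, at least 7.56-fold, with a second probe set at 2080 at P0 and 12.6 at E12.5, at least 8.06-fold. The call for Extl3 was lost with spike-in scaling (log2 ratio 1.51) and with averaged probe sets (1.12), and that for Extl2 was kept under all 8 alternatives tried.

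Supply of precursor and linker showed 1 gene per cell. Ugdh encodes the enzyme that makes UDP-glucuronic acid, a building block of hyaluronan, heparan sulfate and chondroitin sulfate. Its single probe set had 1679 at P0 and 80.8 at E12.5, at least 6.51-fold higher at P0, a call lost with spike-in scaling (log2 ratio 1.84). B3gat3, which encodes the glucuronyltransferase that completes the linker, had 65.6 at P0 and 313 at E12.5 and was detected at E12.5 only. The higher limit of the P0 array lies above 313, so no fold is given. Xylt2, which encodes a xylosyltransferase that starts the linker, was below the limits in both (65.2 at P0 and 12.6 at E12.5).

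Among the enzymes that sulfate heparan sulfate, the same 2 genes were detected in both cells. Hs2st1, which puts sulfate on the uronic acid, had 4097 at P0 and 5975 at E12.5, a 1.46-fold difference. A second probe set of Hs2st1 gave 1129 at P0 and 17.1 at E12.5, at least 4.37-fold higher at P0, and so pointed the other way. Hs6st1, which sulfates the glucosamine, had 2350 at P0 and 4935 at E12.5, 2.10-fold lower at P0. Its log2 ratio of -1.07 lay within 1 SD (1.46) of the ratios of the 3395 named genes detected in both cells. Ndst2, Hs6st2 and Hs3st1 were detected in neither, with representative signals of 69.0 to 119 at P0 and 44.7 to 90.3 at E12.5.

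The enzymes that take sulfate off again differed. Sulf2 encodes a secreted sulfatase that removes sulfate from the glucosamine of finished heparan sulfate chains, the position that Hs6st1 fills. Its signal was 75.8 at P0 and 4415 at E12.5, at least 12.6-fold higher at E12.5. A second probe set gave 15.6 at P0 and 2815 at E12.5, at least 8.06-fold, and the third was below the limits in both. Averaging all of them left a log2 ratio of -0.89, short of a call. Sulf1, its close relative, was below the limits (44.8 at P0 and 9.85 at E12.5).

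Of the 4 listed chondroitin sulfate enzymes and membrane core proteins, 1 was detected at P0 and 3 at E12.5. Over all named genes 28.4% were detected at P0 and 30.3% at E12.5, and a count on 4 genes does not set them apart. Of the 14 further chondroitin and dermatan sulfate enzymes described below, 5 were detected at P0 and 4 at E12.5. Chsy1, a chondroitin polymerase gene with 1 probe set, had 3892 at P0 and 5344 at E12.5, a 1.37-fold difference. Chst11, which encodes a chondroitin sulfotransferase, had 48.6 at P0 and 1517 at E12.5, at least 4.35-fold higher at E12.5. Its second probe set was below the limits (20.8 at P0 and 5.94 at E12.5), and with averaged probe sets Chst11 was detected in neither cell. A further probe set that the annotation assigns to Chst11 together with Phactr1 was not used. It had 12387 at P0 and 45.9 at E12.5, the opposite direction. Cspg5, which encodes neuroglycan C, a membrane proteoglycan of neural tissue, had 98.6 at P0 and 2804 at E12.5, at least 8.03-fold higher at E12.5. Cspg4, the NG2 proteoglycan gene of pericytes and oligodendrocyte precursors, was detected in neither (17.1 at P0 and 97.4 at E12.5).

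The small leucine-rich proteoglycans of connective tissue, decorin (Dcn), lumican (Lum) and biglycan (Bgn), were detected in neither cell by any probe set. Their representative signals were 7.50 to 131 at P0 and 1.69 to 93.1 at E12.5.

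Of the 21 detected genes, 7 were detected in both cells, 11 were called, and 3 (Sdc4, Ext2 and B3gat3) were detected in 1 cell without a call. The 7 detected in both cells (Vcan, Sdc2, Sdc3, Ext1, Hs2st1, Hs6st1 and Chsy1) had log2 ratios from -1.07 to 0.36, and 0 of 7 reached 4-fold, against 17.3% of the 3395 named genes detected in both. All 11 called genes were below the limit in the dimmer cell. Over all named genes, 589 of the 3009 called were detected in both cells, so most calls there had the same form. For Bcan, Gpc4, Gpc6, Extl2 and Sulf2 a second probe set was detected in the brighter cell, and each of these 5 also reached 4-fold in the same direction. Gpc1, Ugdh and Cspg5 had no second probe set, and those of Ncan, Extl3 and Chst11 were below the limit. Among the shared genes, Vcan, Sdc3, Ext1 and Hs2st1 each had a second probe set that was detected in 1 cell only. With averaged probe sets, Vcan, Sdc2, Sdc3 and Hs2st1 were detected in neither cell, and Ext1 was called higher at E12.5 (log2 ratio -2.84).

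**Figure D3:**
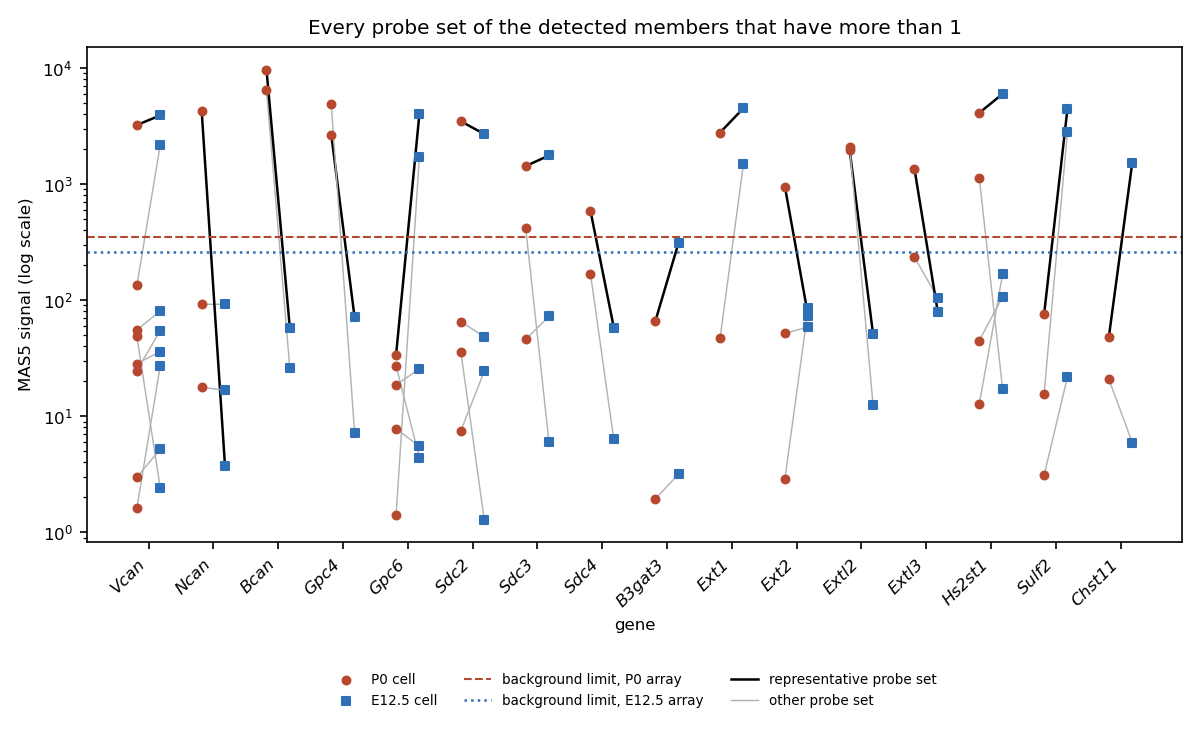
MAS5 signal (log axis) of every probe set of the 16 detected genes that have more than 1, with the P0 cell to the left and the E12.5 cell to the right within each gene, lines joining the same probe set, and the limits of 349 and 258 as horizontal lines. Both probe sets of Bcan, Gpc4 and Extl2 are higher at P0 and the detected ones of Gpc6 and Sulf2 lower at P0, whereas of the 2 detected Hs2st1 probe sets 1 is higher and 1 lower at P0.

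Upstream sequence of the called genes was taken from an extract of RefSeq (build GRCm38.p6). The extract held a start site for 27 of the 40 listed genes and for 7 of the 11 called ones. The 250 bases before the first listed start are shown for 3 genes called higher at P0 and 2 called higher at E12.5, which are those with the largest bounds in the first direction and both with an entry in the second. They are Ncan (chr8:70120845-70121094, minus strand), Bcan (chr3:88000357-88000606, minus strand), Gpc4 (chrX:52164924-52165173, minus strand), Sulf2 (chr2:166155684-166155933, minus strand) and Chst11 (chr10:82985247-82985496, plus strand). Each is written 5′ to 3′ on the gene's own strand, and capitals mark GC boxes (GGGCGG on either strand).
Ncan: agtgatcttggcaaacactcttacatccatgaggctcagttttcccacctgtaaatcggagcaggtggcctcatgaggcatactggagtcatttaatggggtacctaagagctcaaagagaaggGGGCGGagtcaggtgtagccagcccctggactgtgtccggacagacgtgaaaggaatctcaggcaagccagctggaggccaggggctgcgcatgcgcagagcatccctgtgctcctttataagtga
Bcan: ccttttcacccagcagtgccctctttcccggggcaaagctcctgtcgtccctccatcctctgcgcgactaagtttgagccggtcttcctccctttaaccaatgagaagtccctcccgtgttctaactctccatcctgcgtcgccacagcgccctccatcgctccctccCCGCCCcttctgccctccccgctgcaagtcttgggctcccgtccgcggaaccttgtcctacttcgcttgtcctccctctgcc
Gpc4: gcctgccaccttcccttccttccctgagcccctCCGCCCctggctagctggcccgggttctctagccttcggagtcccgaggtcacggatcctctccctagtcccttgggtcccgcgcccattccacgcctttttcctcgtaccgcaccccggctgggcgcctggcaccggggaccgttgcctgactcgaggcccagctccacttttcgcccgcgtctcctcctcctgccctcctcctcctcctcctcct
Sulf2: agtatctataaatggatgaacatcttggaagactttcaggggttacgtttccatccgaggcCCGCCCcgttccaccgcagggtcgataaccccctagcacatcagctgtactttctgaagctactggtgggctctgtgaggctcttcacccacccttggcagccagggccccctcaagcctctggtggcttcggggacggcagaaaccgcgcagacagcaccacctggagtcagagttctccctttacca
Chst11: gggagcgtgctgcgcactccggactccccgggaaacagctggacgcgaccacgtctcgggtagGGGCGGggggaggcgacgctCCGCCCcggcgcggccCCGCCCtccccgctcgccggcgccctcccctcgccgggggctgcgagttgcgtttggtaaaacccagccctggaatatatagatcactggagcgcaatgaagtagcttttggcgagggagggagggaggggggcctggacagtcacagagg
All 7 called genes with an entry held a GC box in this window, as did 21 of the 27 listed genes (77.8%) and 32.9% of 27025 first start sites of genes of any kind. The E-box (CANNTG, both strands) occurred 4 times before Ncan, 2 times before Sulf2, once before Chst11 and not in the windows of Bcan and Gpc4, and in 12 of the 27 windows (44.4%), against 66.0% of all start sites with a match. A TATA box (TATAAA, both strands) lay before Ncan and Sulf2 and in 3 of the 27 windows (11.1%), against 13.0% of all start sites. The core of the hypoxia response element (ACGTG or GCGTG, both strands) matched in the windows of Ncan, Gpc4 and Chst11, and in 16 of the 27 (59.3%), against 38.6% of all start sites. The CCAAT box (CCAAT, both strands) was in 40.7% of the 27 and 34.5% of all start sites, and a Sox motif (ACAATG or ACAAAG, both strands) in 7.41% of the 27 and 25.5% of all start sites. The listed genes had a median of 16 CpG dinucleotides in the window and all start sites a median of 6, and the part of base composition in these shares was not tested. With 7 windows the directions were not compared, and a match describes letters only.

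Other genes of the pathway, from lists drawn up beside the 40, gave counts near the background. Of 95 such genes, 29 (30.5%) were detected at P0 and 28 (29.5%) at E12.5, with 10 (10.5%) called higher at P0 and 6 (6.32%) at E12.5. Over all named genes 28.4% were detected at P0 and 30.3% at E12.5, while 9.24% were called higher at P0 and 7.30% at E12.5. The lists below are also to be read against these shares. With spike-in scaling the calls were 7 at P0 and 11 at E12.5, against 5.76% of all named genes at P0 and 11.6% at E12.5, those of Slc35b3, Col18a1 and Optc being lost (log2 ratios 1.27, 1.58 and 1.41). Of 17 genes for precursors and the linker, 8 were detected at P0 and 7 at E12.5. Slc35d1, a transporter that carries UDP-glucuronic acid into the secretory pathway, was at least 11.4-fold higher at P0 (2932 against 27.9 at E12.5), and so had the direction of Ugdh. Slc35b3, a transporter of the sulfate donor, was at least 4.40-fold higher at P0. Bpnt2, the phosphatase gene that clears the spent sulfate donor, was at least 5.23-fold higher at E12.5. A further 5 of the list were detected in both cells and not called. Papss1, which encodes a synthase of the sulfate donor, had 634 at P0 and 2224 at E12.5, 3.51-fold lower at P0. Gfpt1, whose product starts the route to the amino sugars, had 1158 at P0 and 3452 at E12.5, 2.98-fold lower at P0. Both of these were called higher at E12.5 with spike-in scaling (log2 ratios -2.68 for Papss1 and -2.44 for Gfpt1). Ugp2, which makes UDP-glucose, was 2.02-fold lower at P0 (2854 at P0 and 5751 at E12.5), and the linker galactosyltransferase gene B3galt6 1.68-fold lower (433 at P0 and 728 at E12.5). Slc35b2, the other transporter of the sulfate donor, had 4102 at P0 and 3674 at E12.5. The median log2 ratio of the 10 detected genes of this list was -0.58, against 0.02 over all named genes.

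Of 14 further chondroitin and dermatan sulfate enzymes, 3 were called higher at P0 and 1 at E12.5. The first were the polymerase partner gene Chpf2 (at least 16.9-fold), the chain-initiating enzyme gene Csgalnact2 (at least 10.3-fold) and the sulfotransferase gene Chst7 (at least 8.51-fold). Chst15, another sulfotransferase gene, was at least 7.23-fold higher at E12.5, the direction of Chst11. The dermatan sulfotransferase gene Chst14 was shared (3167 at P0 and 2973 at E12.5), as was Chpf, another polymerase partner gene, at 533 at P0 and 1258 at E12.5. Chpf was 2.36-fold lower at P0 and was called higher at E12.5 with spike-in scaling (log2 ratio -2.11). Of 10 further heparan sulfate enzymes, the epimerase gene Glce (16.3 at P0 and 2131 at E12.5) was called higher at E12.5 and the sulfotransferase gene Hs3st2 (2221 at P0 and 39.4 at E12.5) higher at P0, and the other 8 were detected in neither.

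Of 20 further core proteins, 4 were detected in each cell. Prelp, a small leucine-rich proteoglycan gene, was at least 42.9-fold higher at P0 (11079 against 73.4 at E12.5), in contrast to Dcn, Lum and Bgn. Col18a1, whose product carries heparan sulfate in basement membranes, and Optc of the vitreous were the other two called higher at P0, 5.43-fold and at least 4.84-fold. Agrn, the basement membrane heparan sulfate proteoglycan gene, was shared (17844 at P0 and 7882 at E12.5). Ptprz1, a receptor phosphatase that carries chondroitin sulfate, was at least 4.05-fold higher at E12.5, like Cspg5. Of 15 hyaluronan partner and breakdown genes, 2 were detected in each cell, with Hyal2, a hyaluronidase gene, in both (788 at P0 and 1164 at E12.5). Tnfaip6, which encodes a hyaluronan-binding protein, was the single one called, at least 5.26-fold higher at E12.5. Has1 was detected in neither, so that no hyaluronan synthase passed the limit in either cell.

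**Figure D4:**
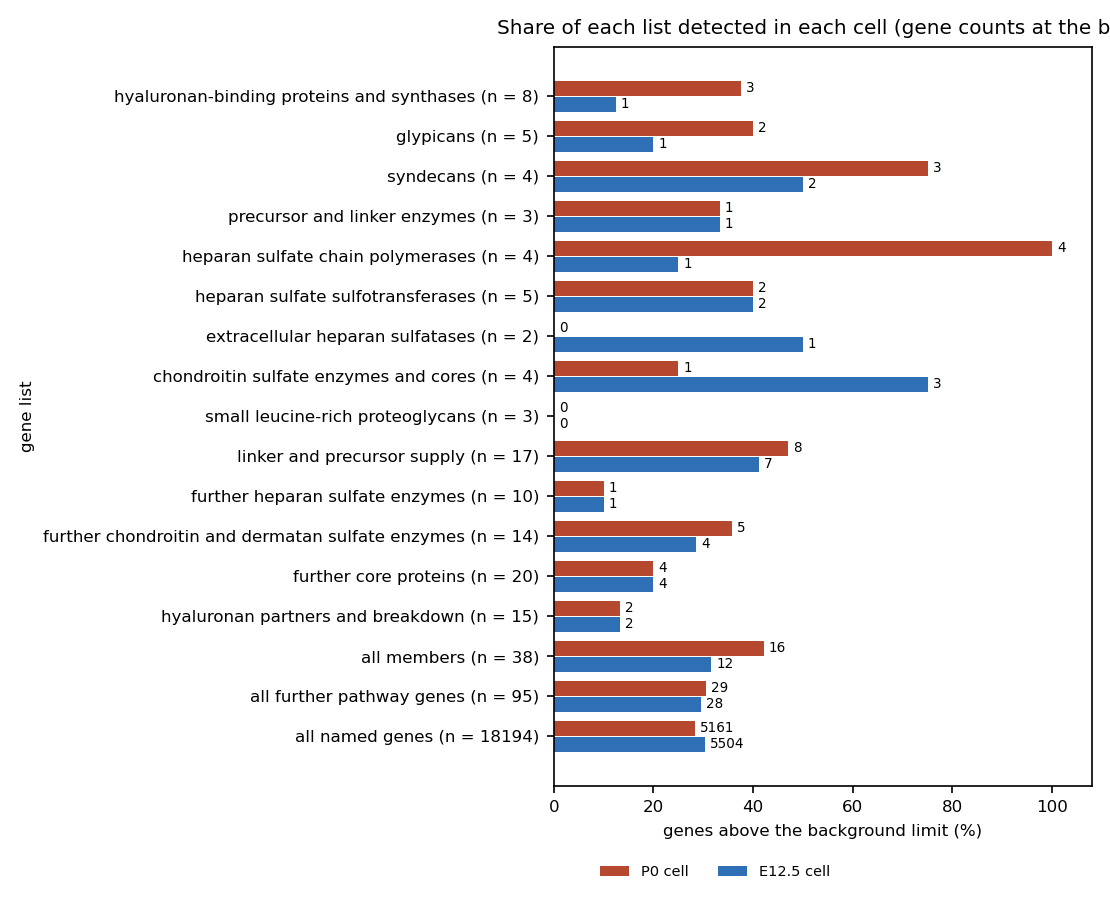
Percent of genes above the background limit at P0 (upper bars) and the E12.5 cell (lower bars) for each role, for further lists of the pathway, and for all named genes, with gene counts at the bars and 1 array per cell. The row labelled heparan sulfate chain polymerases holds 4 genes, the polymerase genes Ext1 and Ext2 and their relatives Extl2 and Extl3. It stands at 100% at P0 and 25% at E12.5, beside 28.4% of all named genes at P0 and 30.3% at E12.5. Extl1, a further relative detected in neither cell, is counted under further heparan sulfate enzymes.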

How the data were processed

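Gene expression was measured on 1 Affymetrix mouse array per cell, in 1 cell at P0 and 1 at E12.5. The deposited table holds 1 linear signal intensity per probe set and cell, made by the authors with MAS5, per the design text and the submitters' processing notes. For its version and settings, these sources give nothing. The mean signal, with 2% trimmed at either end, was 500.0 on both arrays, so each was scaled on its own. Arrays have no read depth, and no interval was computed.

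Of 45101 probe sets, 34958 had 1 gene symbol, 932 had several and 9211 had none in the platform annotation. The 40 symbols were matched to it as given. For 34754 probe sets the symbol was updated by gene identifier from RefSeq. The 40 genes, the further lists, the markers and the background families were chosen with earlier results of these data known. Lists are described by counts beside those over all named genes. Named genes were all 40, and of the further lists those called higher in 1 cell or detected in both, with Extl1 and Has1 added. The call rule was tested on simulated data, with changed genes far above the limit and less noise than the spread between probe sets. That test does not cover calls that rest on a lower bound. The alternatives were another percentile (95th) or bacterial controls for the limit, averaged probe sets, no _s_at or _x_at probe sets, quantile normalisation, spike-in scaling, a pseudocount of 100, and no filter. Python 3.11.15 and pandas 2.3.3 were used.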

Additional observations from a re-analysis of the deposited data

Results flagged for a closer look

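Signal was found in 2 probe sets outside the measurements above, which the annotation assigns to 1 of the 40 genes together with a second gene. The probe set listed for Gal3st4 and Gpc2 had a signal of 3326 at P0 and 79.0 at E12.5, at least 12.9-fold higher at P0. The probe set listed for Phactr1 and Chst11 had 12387 at P0 and 45.9 at E12.5, at least 48-fold higher at P0. Neither signal can be assigned to 1 of its genes. The probe sets of Gpc2 and Chst11 alone were below the limit at P0.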

How the results depend on the processing

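Of 38 values that sum up the 40 genes under 8 alternatives, 30 stayed within 1.5 times the count, or within the spread of 0.83 between probe sets for the median log2 ratio. With the mean of log2 signals over probe sets, 9 genes were detected at P0 in place of 16 and 5 at E12.5 in place of 12, 2 were called higher at E12.5 in place of 4, and the median was 1.12 in place of 0.16. With spike-in scaling, 4 were called higher at P0 in place of 7 and the median was -0.71, while that of all genes moved to -0.85 from 0.02. Calls on the P0 side then made up 50% of the calls in place of 63.6%, and 33.1% in place of 55.9% over all genes. With no filter and no floor, 13 were called higher at P0 and 8 at E12.5, and no count of detected genes can be given. All-gene calls under that setting were 3924 at P0 and 4115 at E12.5, and with averaged probe sets 863 at P0 and 700 at E12.5, in place of 1681 at P0 and 1328 at E12.5. With spike-in scaling they were 1048 at P0 and 2115 at E12.5. Those at E12.5 were 2012 with the 95th percentile and 2004 with bacterial controls. Bcan, Gpc4, Extl2 and Cspg5 kept their call under all 8. For Cspg5, with 1 probe set, averaging could not change the call. Ext2 and Sdc4 gained one on the P0 side at the 95th percentile (log2 ratios 3.08 and 2.39). Averaging left 10 of the 21 genes with no ratio, both cells being below the limit. The median was -0.28 with the 95th percentile, bacterial controls, no _s_at or _x_at probe sets, or no filter, and -0.27 with the pseudocount, opposite in sign to 0.16. With no filter it was taken over all 38 genes, detected or not. The median of all named genes lay between -0.05 and -0.17 under these settings. The cause of these shifts was not tested. No paired analysis was possible because each age has 1 cell. Signals below the limits have no order.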

Other observations

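Of 11 genes for ligands and receptors that bind the chains, 6 (54.5%) were detected at P0 and 8 (72.7%) at E12.5. All 6 of the first were among the second. Over all named genes 28.4% were detected at P0 and 30.3% at E12.5. The list was drawn up with earlier results of these data known, and the part of that choice in its shares was not tested. The heparin-binding growth factor genes Mdk (9539 at P0 and 31058 at E12.5) and Ptn (16403 at P0 and 12047 at E12.5), the receptor phosphatase genes Ptprs (7680 at P0 and 7146 at E12.5) and Ptprf (4802 at P0 and 5366 at E12.5), the guidance ligand gene Slit2 (1205 at P0 and 4508 at E12.5) and the growth factor receptor gene Fgfr1 (3117 at P0 and 1842 at E12.5) were shared and differed by less than 4-fold. With spike-in scaling, Mdk (log2 ratio -2.57) and Slit2 (-2.77) were called higher at E12.5, and Ptn, Ptprs and Fgfr1, slightly higher at P0 as deposited, had ratios of -0.42, -0.76 and -0.11. Fgfr2 was the single one called, with 72.7 at P0 and 2013 at E12.5, at least 5.77-fold higher at E12.5.

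Of 8 genes for breakdown of sulfated chains in lysosomes, 3 were detected at P0 and 2 at E12.5. Naglu, which encodes a glucosaminidase of heparan sulfate breakdown, was at least 11.5-fold higher at P0 (2961 against 10.6 at E12.5), on 1 probe set. The calls of Slc35b3, Csgalnact2, Chst7, Optc and Tnfaip6 also rest on 1 probe set. For the other called genes of the further lists, agreement between probe sets was not examined. Gusb, the glucuronidase gene, was shared (402 at P0 and 683 at E12.5).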
